A study of Homo sapiens with 18 samples.

Results

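Interferon-stimulated genes were followed through the chromatin accessibility of 3 squamous carcinoma cell lines treated with cetuximab. The list held 45 genes, and every region of the deposited table that touched the body of a listed gene, extended by 10 kb on both sides, was taken, using the GENCODE annotation on GRCh37 (hg19). This gave 121 regions of 115087 in all, at 44 of the 45 genes. Regions within 1 kb of a transcript start of a listed protein-coding gene were called start-site regions (49 regions, 39 genes) and the other 72 were kept apart. XAF1 had no region, and IFITM2, MX2, OASL, IFI44L and SAMD9L had regions but none at a start site. The members were chosen by gene name and position, not by their signal, but with earlier results of these data known.

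The lines SCC1 and SCC6 (UM-SCC-1 and UM-SCC-6) and SCC25 come from head and neck squamous cell carcinomas (HNSCC). Cells were grown in medium with 10% serum and given 100 nM cetuximab, an antibody that blocks the epidermal growth factor receptor, or PBS as the untreated control, daily for 5 days. Accessibility was read by ATAC-seq: a transposase inserts adapters into open chromatin, and the fragments it frees are sequenced. There were 3 libraries for each line and treatment, except that SCC1 with PBS had 2, replicates 1 and 3, since replicate 2 was not analysed here. Each line is a tumour cell population in culture with no immune cells of a host.

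Interferons are secreted signals of infection. Type I interferon binds the receptor made of IFNAR1 and IFNAR2, the kinases JAK1 and TYK2 are activated, and the ISGF3 complex, which holds STAT2 and IRF9, forms and enters the nucleus. ISGF3 binds the interferon-stimulated response element (ISRE) near the start sites of antiviral genes, while interferon gamma acts through the gamma-activated sequence (GAS). IRF1 and IRF7 are further factors of the family that bind such elements and are themselves induced.

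The letters of these elements were looked for on both strands of every region, in the GRCh37 reference genome. The ISRE was searched as GAAANNGAAA and the GAS as TTCNNNGAA, and matches of both may overlap. The ISRE letters stood in 27 of the 49 start-site regions of the listed genes (55.1%) and in 709 of all 15528 start-site regions (4.57%). In regions between 400 and 800 bases wide the shares were 11 of 16 (68.8%) and 4.67%. The other regions of the listed genes held the letters in 7 of 72 (9.72%), against 4.74% of all regions. The GAS letters stood in 16 of 49 start-site regions (32.7%) and in 9.73% of all start-site regions. A match is a description of the letters, not a measured binding site.

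The 30-base windows below, on the strand of the gene, are shown because they lie in the start-site regions that set the lines or treatments apart, or that carry the classical promoters of the list. Capitals mark the ISRE letters, in either orientation.
ISG15, chr1:948760-948789: tcgggaaaggGAAACCGAAActgaagccaa
MX1, chr21:42792486-42792515: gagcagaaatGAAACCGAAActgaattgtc
IRF7, chr11:615684-615713: actgtttaggTTTCGCTTTCccgggagcct
IFI27, chr14:94576964-94576993: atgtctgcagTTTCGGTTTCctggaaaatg
OAS2, chr12:113416316-113416345: tagacttcagTTTCAGTTTCctggctctgg
BST2, chr19:17516550-17516579: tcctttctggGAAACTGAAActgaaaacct
IFIT1, chr10:91152254-91152283: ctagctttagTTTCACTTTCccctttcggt
USP18, chr22:18632817-18632846: ccgctgtaagTTTCGCTTTCcattcagtgg
DTX3L and PARP9, chr3:122283169-122283198: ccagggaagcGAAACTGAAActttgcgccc
RSAD2, chr2:7017753-7017782: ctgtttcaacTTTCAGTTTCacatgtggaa
ISG20, chr15:89182168-89182197: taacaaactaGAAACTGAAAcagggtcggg
HERC5, chr4:89378186-89378215: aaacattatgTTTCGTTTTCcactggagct

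Of the 45 matches in start-site regions, 42 lay within 200 bases of a start and 35 upstream of it, with a median position of -36. These regions were chosen within 1 kb of a start, so closeness to a start was partly set by the choice. Positions over all start-site regions are not given here. The start-site regions of STAT2 and IRF9, which are parts of ISGF3, held no ISRE letters.

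**Figure D1:**
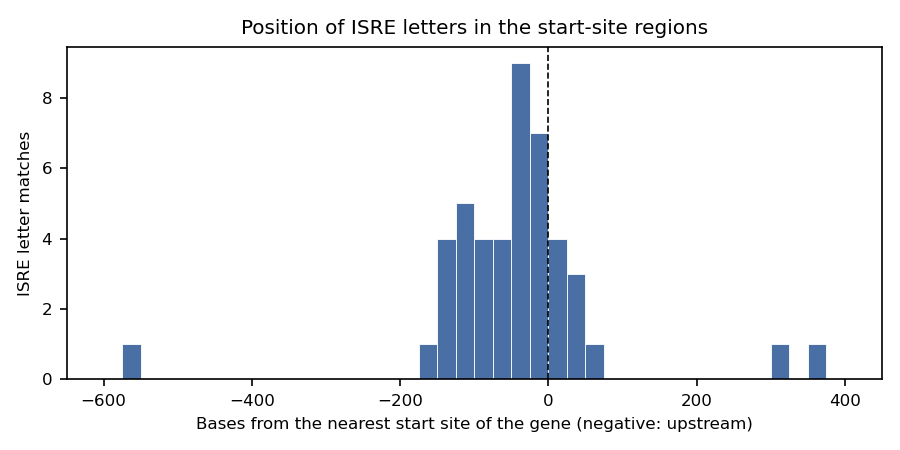
Number of ISRE letter matches (vertical axis) by their distance in bases from the nearest start site of the listed gene (horizontal axis, 25-base bins, dashed line at the start). Most of the 45 matches sit just upstream of the start, with 42 within 200 bases.

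Accessibility is given as the normalized signal of the deposited table, which scales each library to a common depth. It was compared between regions only as a difference between libraries, since the level of a region also depends on its width. The libraries held between 2194851 and 15017130 reads in all regions and between 3342 and 17401 in the regions of the listed genes. The cetuximab libraries of SCC1 (2194851 to 3665345 reads) were shallower than or about as deep as the 2 PBS libraries (3577180 and 4171650). Libraries of one group correlated at 0.92 to 0.973 over all regions. All 6 squamous epithelium markers examined (KRT5, KRT14, KRT17, TP63, ITGB4 and DSG3) had a start-site region, with mean signals from 24.7 (DSG3) to 117 (ITGB4). The lowest library gave 1.01 for KRT14 and 0.669 for DSG3, and between 14.5 and 59.4 for the others. Of the other markers, 1 of 4 for leukocytes (CD14, mean 28.0 and up to 92.4 in 1 library) and 1 of 3 for fibroblasts (DCN, mean 2.01) had a start-site region. Neither of the endothelial markers CDH5 and VWF had one. The labels do not say that libraries of a group came from separate cultures, so the p-values below measure the spread between libraries, which may be technical.

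**Figure D2:**
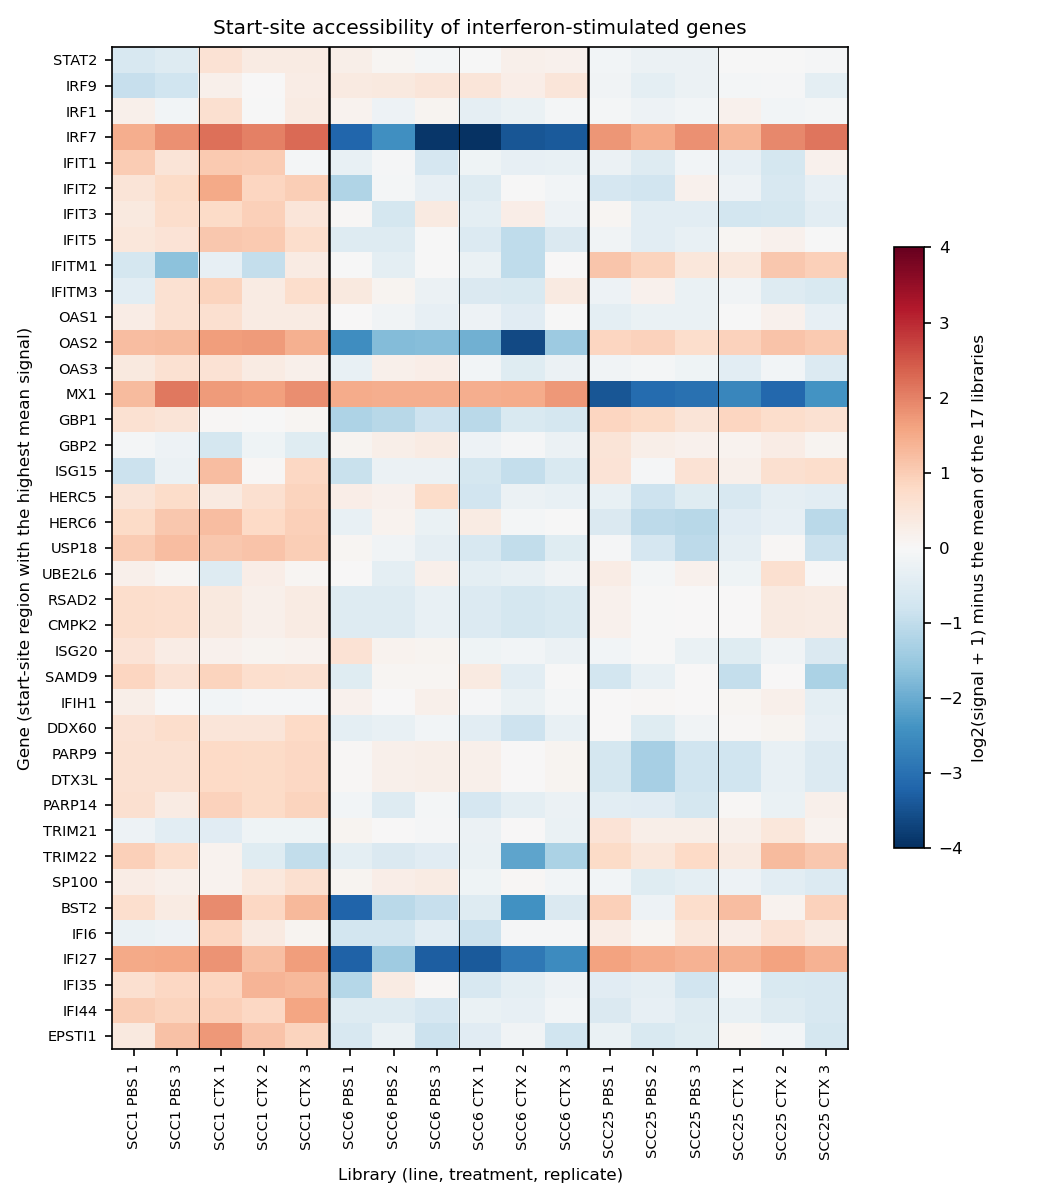
Signal at the start-site region of 39 interferon-stimulated genes (rows) in 17 libraries (columns, by line, treatment and replicate; CTX, cetuximab), as log2(signal + 1) minus the mean of the 17 libraries for that region. The strongest contrasts follow the line and not the treatment: IRF7, OAS2 and IFI27 are low in all 6 SCC6 libraries and MX1 in all 6 SCC25 libraries.

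In SCC1, cetuximab raised the accessibility of the start sites of STAT2 and IRF9 about equally, whereas the main start sites of the antiviral genes IFIT1, MX1 and OAS1 did not pass the test. Changes were tested with limma on log2(signal + 1), with Benjamini-Hochberg adjustment over all regions tested and a threshold of 0.05. Of the 105 regions of the listed genes tested, 13 passed, 5 higher and 8 lower (12.4%), against 11.1% of all regions. The share was near the background. Since ATAC-seq was done on bulk cells, fewer cells with an open region and less opening per cell cannot be told apart. Subtracting library medians shifted the typical change over all regions by 0.188 in SCC1 and by -0.174 in SCC6. After this centring, 14 were higher and 6 lower, and after quantile normalization 10 and 6.

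The STAT2 start site (chr12:56753794-56754405, over the first exon) gave signals of 377, 311 and 313 with cetuximab and 161 and 173 with PBS in SCC1. The IRF9 start site (chr14:24630160-24630926, over the first exon) gave 179, 158 and 191 with cetuximab and 82.0 and 88.2 with PBS. At both, every cetuximab library lay above both PBS libraries. STAT2 rose by a log2 difference of 0.99 (SE 0.18, limma adjusted p = 1.09e-05) and IRF9 by 1.03 (SE 0.23, limma adjusted p = 0.000405). Both calls held under all 14 alternatives, the weakest giving adjusted p values of 0.0187 for STAT2 and 0.0492 for IRF9. The other factors did not pass: IRF1 had a log2 difference of 0.25 (SE 0.18, limma adjusted p = 0.398) and IRF7 of 0.54 (SE 0.24, limma adjusted p = 0.132), the latter passing in 2 of the alternatives.

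ISG15, a ubiquitin-like protein that is attached to other proteins, has an upstream start annotated next to HES4, and the region there (chr1:935445-936297) had the highest mean signal of its start-site regions. It held 287, 125 and 214 with cetuximab and 66.4 and 102 with PBS, so the groups did not overlap, and it rose by 1.25 (SE 0.23, limma adjusted p = 1.87e-05). It is shared with the start of HES4, and the call was lost after removal of the GC trend (adjusted p = 0.186). The region over the classical ISG15 promoter (chr1:948684-948956), which holds the ISRE shown above, gave 74.9, 79.8 and 108 with cetuximab and 42.9 and 60.3 with PBS and was not among the calls. A region 5940 bases from the nearest ISG15 start, within 1 kb of the start of AGRN, rose by 1.43 (SE 0.29, limma adjusted p = 9.37e-05), a call that the GC trend also ended (adjusted p = 0.111). Another, 8232 bases upstream of IFI35 and within 1 kb of the start of the ribosomal gene RPL27, rose by 1.05 (SE 0.21, limma adjusted p = 0.000103). Thus 3 of the 5 higher regions lay at the start of a neighbouring gene that was not listed.

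Among start-site regions in SCC1, 3 of 49 were higher (STAT2, IRF9 and ISG15) where 13.6% of all start-site regions were, and 2 were lower where 1.6% of all were. The lower 2 were secondary start-site regions of IFIT2, which binds foreign RNA, and OAS3, which makes the activator of RNase L. Secondary is by mean signal over all libraries. In SCC1 with PBS this IFIT2 region had the higher mean (61.93, against 28.64 at the main one). The IFIT2 region fell from 62.5 and 61.4 with PBS to 21.6, 19.5 and 31.3 with cetuximab, a log2 difference of -1.35 (SE 0.39, limma adjusted p = 0.00971). The OAS3 region fell from 72.9 and 96.0 to 45.7, 48.7 and 40.7, a log2 difference of -0.88 (SE 0.31, limma adjusted p = 0.0447). Neither held under all alternatives: IFIT2 was lost in 4 of 14 and OAS3 in 10 of 14. At the main start sites of IFIT1, MX1 and OAS1, the log2 changes were -0.12 (SE 0.34), 0.06 (SE 0.34) and -0.03 (SE 0.29), with limma adjusted p values of 0.883, 0.94 and 0.963.

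Among the falls in SCC1, the one with the smallest adjusted p was at ISG20, an exonuclease that degrades RNA. A region downstream of the gene (chr15:89202523-89203099) went from 105 and 123 with PBS to 48.2, 31.1 and 23.5 with cetuximab, without overlap. The log2 change was -1.76 (SE 0.32, limma adjusted p = 1.11e-05), and it passed in all 14 alternatives. An intronic region of ISG20 (chr15:89192552-89192818) fell by 2.18 on the log2 scale (SE 0.65, limma adjusted p = 0.0141), and was lost in 4 of 14. Regions near IFIH1 (-1.31, adjusted p = 0.00325), SAMD9 (-0.93, adjusted p = 0.00589), IRF1 (-1.14, adjusted p = 0.00752) and OAS2 (-1.28, adjusted p = 0.0453) were lower in the same limma fit. Each of these 4 was lost when either PBS library was left out. Without PBS replicate 1, 6 regions of the list were called in SCC1, 5 higher and 1 lower, and without PBS replicate 3, 7 were called.

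**Figure D3:**
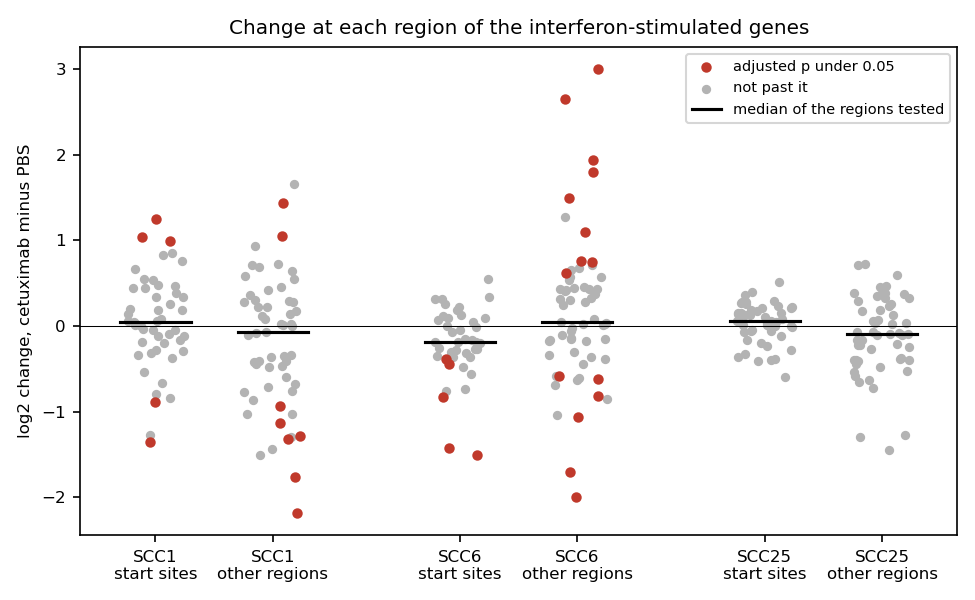
Log2 change in signal, cetuximab minus PBS (vertical axis), at each tested region of the listed genes, by line and by kind of region; red points passed an adjusted p of 0.05 and black bars are medians. SCC1 and SCC6 have calls in both directions, SCC6 start sites are called only downward in this fit, and SCC25 has no call.

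In SCC6, cetuximab changed regions away from the start sites in both directions, and the start-site regions that changed all fell. Of 103 regions tested, 20 passed (19.4%), 9 higher and 11 lower, against 27.5% of all regions, a share below the background. Centring on medians gave 5 higher and 23 lower, quantile normalization 5 and 16, edgeR 5 and 15 and DESeq2 5 and 12, so the balance of directions depended on the scaling. Among the 42 start-site regions tested, 5 were lower (11.9%) and 0 higher, where 10.9% of all start-site regions were lower and 3.77% higher. At the start-site regions, 8 of 42 had an unadjusted p under 0.05. The other 7 start-site regions were below the filter on mean signal in this line, among them those of IRF7 and IFI27.

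The RSAD2 region (chr2:7017610-7017943), at a start of the gene for viperin, an enzyme that makes a chain-terminating nucleotide, carries the ISRE shown above. It gave 35.04, 23.4 and 15.2 with PBS and 10.1, 4.64 and 8.93 with cetuximab, without overlap. It fell by 1.51 on the log2 scale (SE 0.42, limma adjusted p = 0.00521), and by an amount that no longer passed without PBS replicate 1 (adjusted p = 0.0651). This region counts as secondary for RSAD2 only because its mean signal was lower. The region of highest mean signal is shared with the start of CMPK2. Its log2 change in SCC6 was -0.19 and did not pass (SE 0.14, limma adjusted p = 0.321). HERC5, the ligase that attaches ISG15, fell from 91.8, 85.7 and 127 to 44.5, 64.1 and 61.5 at its start site, a log2 difference of -0.83 (SE 0.20, limma adjusted p = 0.00135). The HERC5 groups did not overlap, and the call was lost after removal of the GC trend (adjusted p = 0.0984).

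ISG20 fell in SCC6 at its start site and at both regions named in SCC1. The start site (chr15:89181759-89182419) went from 454, 329 and 323 to 267, 282 and 257, a log2 difference of -0.44 (SE 0.10, limma adjusted p = 0.00111), lost when PBS replicate 1 was left out or the GC trend removed (highest adjusted p = 0.331). The downstream region went from 110, 79.6 and 109 with PBS to 55.6, 44.6 and 40.7 with cetuximab. It fell by 1.06 on the log2 scale (SE 0.21, limma adjusted p = 7.57e-05), and the intronic region by 1.70 (SE 0.34, limma adjusted p = 0.000133), and both passed in all 15 alternatives. In SCC25 the downstream region gave 128, 123 and 109 with PBS and 97.0, 109 and 72.6 with cetuximab, a log2 difference of -0.39 (SE 0.17, limma adjusted p = 0.337). The intronic region was also lower with cetuximab in SCC25, from a mean of 46.1 to 17.7, without overlap. Its log2 difference of -1.44 fell just short of the threshold (SE 0.33, limma adjusted p = 0.0528). The intronic region did not pass the test for a different response between lines (limma adjusted p = 0.766). The other 2 lower start-site regions in SCC6, a second one of ISG20 (from a mean of 18.6 to 5.77) and that of GBP2 (from 150 to 115), were named after their values were seen.

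Other falls in SCC6 were at an intron of DDX60, a helicase that acts with RNA sensors, an intron of IFIT3 and a region upstream of PARP9, which ADP-ribosylates with its partner DTX3L. DDX60 fell by 2.00 on the log2 scale (SE 0.36, limma adjusted p = 2.01e-05), from 37.5, 32.1 and 50.0 to 5.05, 13.9 and 10.3. IFIT3 fell by 0.59 (SE 0.15, limma adjusted p = 0.00257) and PARP9 by 0.61 (SE 0.19, limma adjusted p = 0.0133). DDX60 and IFIT3 passed in all 15 alternatives and PARP9 in all but 3.

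The rises in SCC6 were largest downstream of GBP1, a guanylate-binding GTPase that coats pathogens. A region there (chr1:89514875-89515255) gave 1.21, 6.02 and 1.09 with PBS and 28.3, 17.6 and 29.1 with cetuximab, so it went from near the lowest values of the table to a clear signal. It rose by 3.00 (SE 0.55, limma adjusted p = 3.55e-05) and a neighbouring region by 2.65 (SE 0.59, limma adjusted p = 0.000487), both in all 15 alternatives. The GBP1 start site did not pass in SCC6 (log2 change 0.26). An intron of EPSTI1 rose from 32.6, 47.5 and 58.7 to 143, 120 and 124, by 1.49 (SE 0.20, limma adjusted p = 7.96e-08). A region 4974 bases from an ISG15 start rose from 18.1, 18.7 and 23.9 to 57.6, 71.5 and 91.6, by 1.79 (SE 0.26, limma adjusted p = 4.34e-07). Both of these passed in all 15 alternatives. Smaller rises at HERC6 (1.93, adjusted p = 0.00697), OAS2 (1.09, adjusted p = 0.0407) and MX1 (0.62, adjusted p = 0.0425) passed in the limma fit, with OAS2 lost in 10 of 14 alternatives and MX1 in 12 of 15. STAT2 and IRF9, which rose in SCC1, had log2 changes of 0.05 (SE 0.10, limma adjusted p = 0.748) and -0.01 (SE 0.12, limma adjusted p = 0.979) in SCC6.

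In SCC25, no region of the list passed. Limma called 0 of 102, against 0.315% of all regions, with 12 at an unadjusted p under 0.05, while edgeR called 3 and DESeq2 1. Of the 48 start-site regions tested, 0 passed (2 at an unadjusted p under 0.05), where 0.0276% of all start-site regions were higher and 0.0276% lower. STAT2 gave 234, 213 and 214 with PBS and 248, 246 and 243 with cetuximab, groups that did not overlap, with a log2 difference of 0.16 (SE 0.12, limma adjusted p = 0.595). IRF9 had a log2 difference of 0.09 (SE 0.15, limma adjusted p = 0.853), ISG15 of 0.15 (SE 0.17, limma adjusted p = 0.746) and IRF7 of 0.11 (SE 0.19, limma adjusted p = 0.851). IRF1, IFIT1 and OAS1 had log2 changes of 0.12, -0.01 and 0.26, and MX1 was below the filter.

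**Figure D4:**
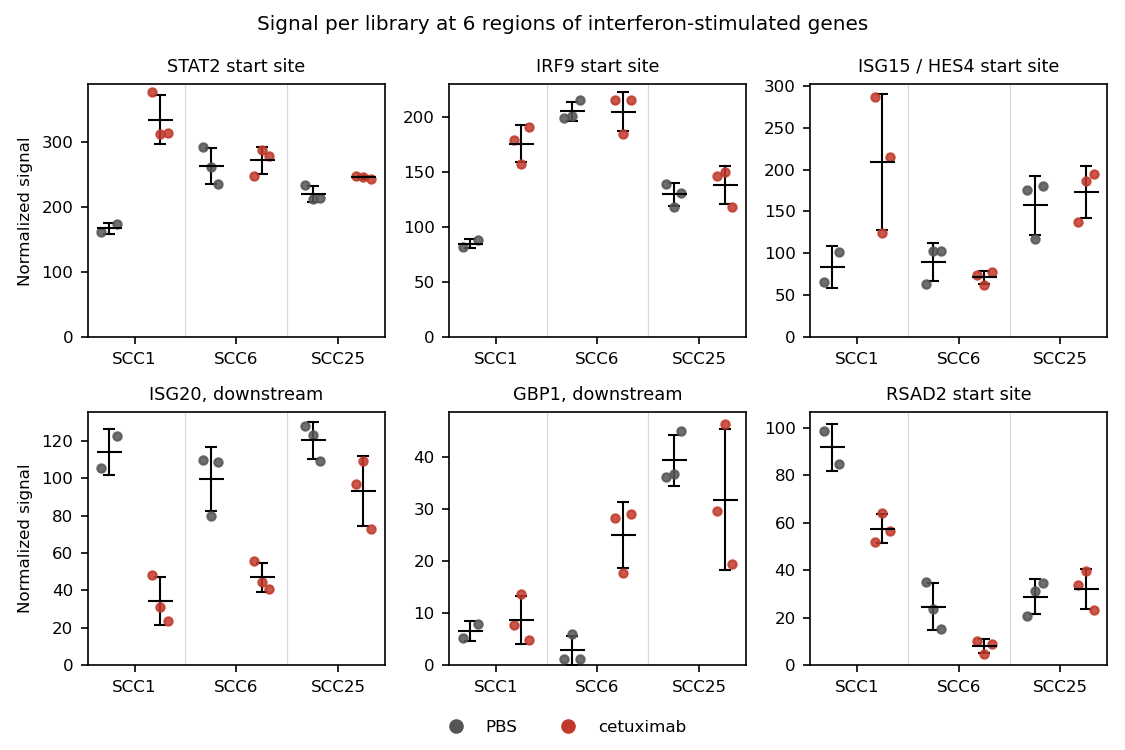
Normalized signal (vertical axis, from 0) in each library at 6 regions, by line, with PBS in grey and cetuximab in red; bars are the mean and SD of 3 libraries, or 2 for SCC1 with PBS. STAT2, IRF9 and the ISG15 region separate by treatment in SCC1, the region downstream of ISG20 in SCC1 and SCC6, and the regions of GBP1 and RSAD2 in SCC6. STAT2 in SCC25 and RSAD2 in SCC1 also separate, without passing the test, and the ISG20 groups nearly meet in SCC25.

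A test of whether the response differed between lines, the interaction of line and treatment, called 14 of 103 regions of the list (13.6%), against 13.2% of all regions. At start sites it called 3 of 48, STAT2, IRF9 and ISG15, where 13.5% of all start-site regions were called. STAT2 (limma adjusted p = 0.000861) and IRF9 (limma adjusted p = 0.00175) thus differed between lines in their response, with the rise in SCC1. The ISG15 region near AGRN had the smallest value (limma adjusted p = 0.000225), with log2 changes of 1.43 in SCC1, -0.60 in SCC6 and 0.71 in SCC25. The 2 GBP1 regions (limma adjusted p = 0.00255 and 0.00314) and the IFIT3 intron (limma adjusted p = 0.00588) followed. These 6 passed in all alternatives run for the interaction. The region downstream of ISG20 also differed between lines (limma adjusted p = 0.0195), with falls of unequal size.

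Between untreated lines, SCC1 most often had the highest start-site signal of the list. The signal with PBS was highest in SCC1 at 27 of 39 genes (69.2%), in SCC25 at 9 and in SCC6 at 3, whereas SCC1 was highest at 37.7% of all 15528 start-site regions. The units differ: each listed gene was taken at its main start site, while the 37.7% counts every start-site region, secondary ones included. RSAD2 and CMPK2 share a main start site, as do PARP9 and DTX3L, and each of these genes was counted. Against SCC1, SCC6 had 5 start-site regions higher and 29 lower of 48 tested, where 28.4% of all start-site regions were higher and 21.2% lower. SCC25 had 6 higher and 23 lower of 48, where 19.1% of all were higher and 31.2% lower. The median log2 difference was -0.87 in SCC6, against 0.06 for all start-site regions, and -0.60 in SCC25, against -0.18. These comparisons share the 2 SCC1 PBS libraries. Over all regions of the list, 62 of 104 passed for SCC6 against SCC1 (61.2% of all regions), 55 for SCC25 against SCC1 (51.3%) and 60 for SCC25 against SCC6 (68.7%), shares of the list that were below or near these backgrounds. Between SCC6 and SCC1 the 62 were 16 higher and 46 lower, and after removal of the GC trend 19 and 30.

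The differences were also split by ISRE letters. Between SCC6 and SCC1, the listed start-site regions with ISRE letters had a median log2 difference of -0.84 (27 regions) and those without of -1.07 (21 regions), while start-site regions of genes not listed had -0.04 with the letters and 0.06 without. Between SCC25 and SCC1 the listed regions had -0.62 and -0.58 and the others -0.23 and -0.17. In SCC1 the regions that cetuximab changed at start sites, 3 higher and 2 lower, were all among the 22 listed without ISRE letters. Of start-site regions not listed, 67 of 646 with the letters and 1904 of 13849 without were higher, and 18 and 213 lower. In SCC6 the lower listed start-site regions were 3 of 25 with the letters and 2 of 17 without. For those not listed, the lower ones in SCC6 were 81 of 629 and 1445 of 13415.

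**Figure D5:**
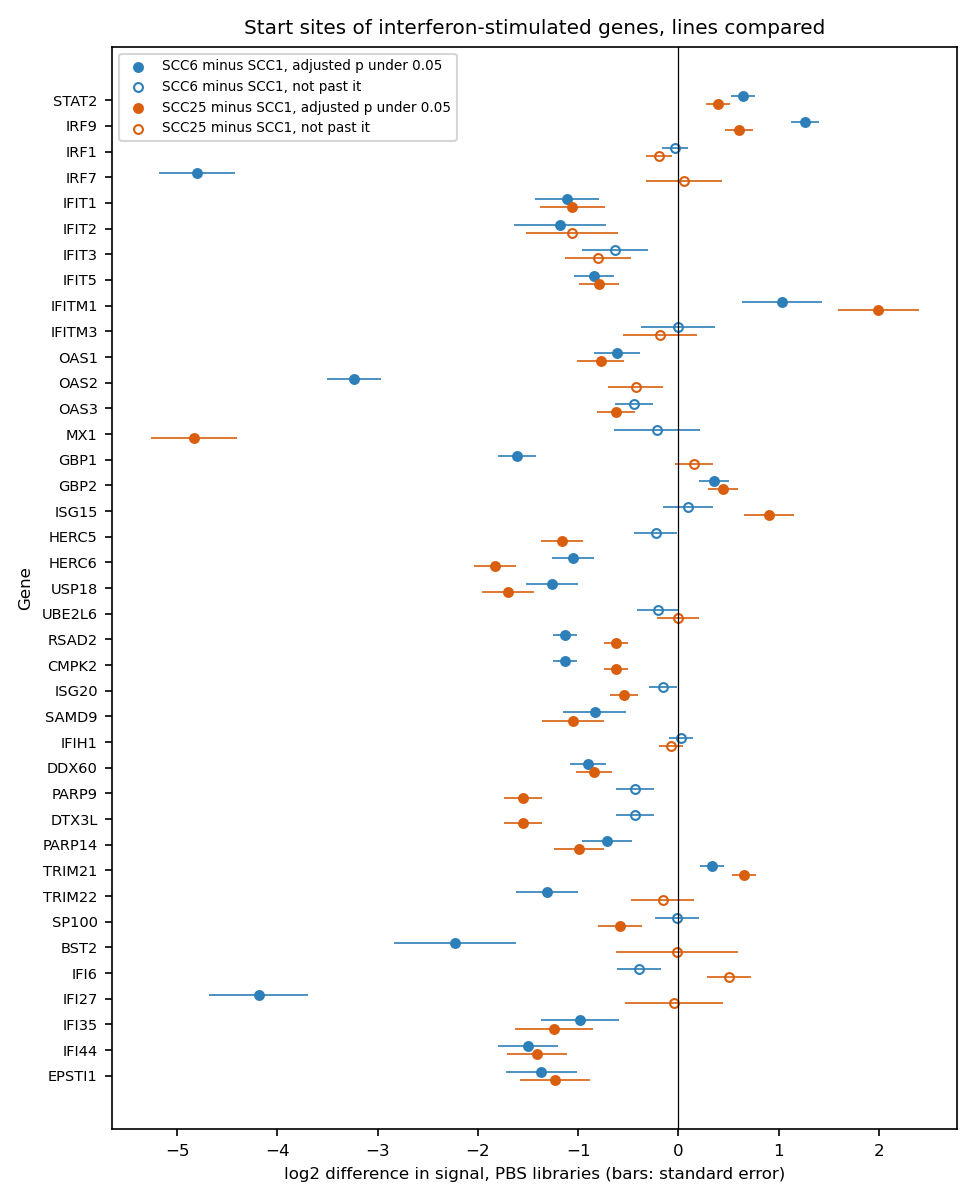
Log2 difference in signal between PBS libraries (horizontal axis), SCC6 minus SCC1 in blue and SCC25 minus SCC1 in orange, at the start-site region of each of 39 genes; bars are standard errors and filled points passed an adjusted p of 0.05. Most points lie left of 0, with IRF7 (-4.80) and IFI27 (-4.19) far left in SCC6 and MX1 (-4.83) in SCC25.

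IRF7, the factor that amplifies interferon production, had its start site near the lowest values of the table in SCC6. Its start site (chr11:615632-616132) gave 83.3 and 108 with PBS in SCC1, 105, 85.1 and 109 in SCC25, and 2.42, 4.68 and 1.09 in SCC6. The 3 cetuximab libraries of SCC6 gave 1.01, 1.86 and 1.98. The log2 difference was -4.80 between SCC6 and SCC1 (SE 0.38, limma adjusted p = 3.29e-08) and 4.86 between SCC25 and SCC6 (SE 0.34, limma adjusted p = 5.42e-09), with no overlap.

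The same held at IFI27, a small mitochondrial and nuclear membrane protein gene that responds strongly to type I interferon. Its start site (chr14:94576907-94577376) gave 58.6 and 59.2 with PBS in SCC1, 61.4, 56.3 and 53.4 in SCC25, and 1.21, 6.69 and 1.09 in SCC6 (log2 difference from SCC1 -4.19, SE 0.49, limma adjusted p = 2.38e-06). OAS2, a synthetase of the RNase L activator, gave 108 and 111 in SCC1, 82.9, 85.8 and 74.7 in SCC25, and 7.25, 12.7 and 13.1 in SCC6 (-3.24, SE 0.27, limma adjusted p = 5.83e-08). BST2, or tetherin, which holds budding viruses at the cell surface, gave 31.2 and 24.6 in SCC1, 38.4, 16.6 and 32.2 in SCC25, and 1.21, 8.70 and 9.79 in SCC6, at a start shared with MVB12A (-2.23, limma adjusted p = 0.00489). No peak was listed at the IRF7, IFI27 or OAS2 start site in any of the 6 SCC6 libraries, against 2, 2 and 5 of 5 libraries in SCC1 and 4, 4 and 5 of 6 in SCC25, from the same reads.

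The surroundings of these start sites were not lower to the same extent. The median log2 difference from SCC1 of the other regions within 500 kb was 0.45 around IRF7 (51 regions), -0.56 around IFI27 (44), -0.07 around OAS2 (33) and 0.97 around BST2 (38). Secondary start-site regions of TRIM22 (-4.005, SE 0.50, limma adjusted p = 4.82e-06), IRF1 (-3.52, SE 0.59, limma adjusted p = 9.07e-05) and OAS2 (-2.83, SE 0.46, limma adjusted p = 6.52e-05) were also lower in SCC6 than in SCC1, and each was higher in SCC25 than in SCC6. The main IRF1 start site did not pass (-0.04, limma adjusted p = 0.817 for SCC6 against SCC1). GBP1 was lower in SCC6 at its main start site, with 31.4, 34.8 and 42.4 against 115 and 109 in SCC1 (-1.61, limma adjusted p = 2.79e-06).

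MX1, a dynamin-like GTPase that traps viral particles, was at the lowest value of the table in SCC25. Its start site (chr21:42792214-42792672) held 1 read, the least the table gives, in each of the 6 SCC25 libraries, against 33.8 and 61.4 in signal with PBS in SCC1 and 39.9, 38.8 and 39.2 in SCC6. Against a floor of 3 reads a library, the signal with PBS was at least 24.5-fold higher in SCC1 and at least 20.2-fold higher in SCC6. The 40 consecutive regions from chr21:41696839 to 43171967, a stretch of 1480 kb that holds 3 regions of MX1 and MX2, all had 1 read in every SCC25 library. Of all regions 7.08% did in SCC25, and 6 runs in SCC25 were as long or longer. Copy number of this stretch was not measured, so absent DNA and closed chromatin cannot be told apart.

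Of the 6 start-site regions of ISG15, HERC5, HERC6, USP18 and UBE2L6, taken as a group, 3 were lower and 1 higher in SCC25 than in SCC1. Of all start-site regions, 31.2% were lower and 19.1% higher, and whether the counts of this small group differ from these shares was not tested. The higher one of the 6 was the ISG15 region shared with the start of HES4 (0.90, SE 0.25, limma adjusted p = 0.00655). This call was lost without SCC1 PBS replicate 1 (limma adjusted p = 0.108). The region over the classical ISG15 promoter was not higher, with a mean of 43.67 with PBS in SCC25 and 51.62 in SCC1. The start site of HERC6 gave 58.0, 41.8 and 39.9 with PBS, against 150 and 184 in SCC1 (-1.83, SE 0.21, limma adjusted p = 5.38e-06). The start site of USP18, the protease that removes ISG15 and dampens the receptor, gave 63.7, 41.1 and 31.4 against 133 and 156 (-1.70, SE 0.26, limma adjusted p = 6.26e-05). HERC5 was lower too (-1.16, limma adjusted p = 0.000335), while UBE2L6, the conjugating enzyme, had a difference of -0.002 that did not pass (limma adjusted p = 0.994). The other regions within 500 kb were lower as well, with medians of -0.91 around HERC5, -1.01 around HERC6 and -0.55 around USP18, and HERC5 minus its surroundings was -0.24. The shared start site of DTX3L and PARP9 gave 70.9, 45.4 and 67.0 in SCC25 and 178 and 176 in SCC1 (-1.55, SE 0.19, limma adjusted p = 7.32e-06), with a median of -0.58 around it. Secondary start-site regions of IFIT2 (-2.11, SE 0.39, limma adjusted p = 0.000385) and RSAD2 (-1.67, SE 0.34, limma adjusted p = 0.00078) were also lower. Against SCC6, SCC25 was lower at DTX3L (-1.11), HERC5 (-0.93), HERC6 (-0.78), IRF9 (-0.66) and SP100 (-0.57). Of start-site regions, 17 were higher and 8 lower in SCC25 than in SCC6, where 18.8% of all were higher and 42.3% lower.

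The genes lower in both lines than in SCC1 included IFIT1 (-1.11 in SCC6 and -1.06 in SCC25), IFIT5 (-0.85 and -0.79), IFI44 (-1.50 and -1.41), EPSTI1 (-1.37 and -1.23) and DDX60 (-0.90 and -0.84). The regions within 500 kb of IFIT1 and of IFIT5 had medians of -0.73 in SCC6 and -0.81 in SCC25, so IFIT5 differed little from its surroundings. The medians were -0.04 and -0.40 around IFI44, -0.35 and -0.43 around EPSTI1, and -0.57 and -0.14 around DDX60. SCC1 was the lowest at STAT2 and IRF9. IRF9 gave 82.0 and 88.2 in SCC1, 139, 118 and 132 in SCC25, and 199, 201 and 215 in SCC6, with no overlap between lines. Its log2 difference from SCC1 was 1.26 in SCC6 (SE 0.14, limma adjusted p = 9.69e-07) and 0.60 in SCC25 (SE 0.14, limma adjusted p = 0.00181). The regions within 500 kb of IRF9 were higher by a similar amount, with medians of 1.00 and 0.86. STAT2 was higher in SCC6 by 0.64 (SE 0.12, limma adjusted p = 0.000249) and in SCC25 by 0.39 (SE 0.12, limma adjusted p = 0.0125), the latter lost in 3 of 17 alternatives. IFITM1, a membrane protein that blocks viral entry, was higher in SCC25 by 1.99 (SE 0.40, limma adjusted p = 0.000645) and in SCC6 by 1.03 (SE 0.40, limma adjusted p = 0.034), the latter lost in 7 of 17. TRIM21, an antibody receptor inside the cell, was higher in SCC25 by 0.65 (SE 0.12, limma adjusted p = 0.000439), while the regions around it had a median of 1.04. The medians around STAT2 were 0.30 in SCC6 and 0.08 in SCC25, and around IFITM1 0.47 in both.

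The genes upstream in the pathway were taken from a separate list of 19 receptors, kinases, sensors and inhibitors, of which 17 had a start-site region. In SCC1, cetuximab raised 3 of 17, TYK2 (1.09, limma adjusted p = 0.00172), the factor IRF3 (1.25, limma adjusted p = 0.000189) and the inhibitor SOCS3 (0.82, limma adjusted p = 0.028). The 2 SCC1 PBS libraries lay far apart at TYK2 (35.73 and 102.8, lowest cetuximab library 109.0) and IRF3 (34.62 and 88.47, lowest cetuximab library 115.8). They were closer at SOCS3 (53.6 and 66.35, lowest cetuximab library 93.43). In SCC6, 3 of 17 were lower, SOCS1 (-0.59, limma adjusted p = 0.00144), IFNGR1 (-0.35, limma adjusted p = 0.0161) and IRF2 (-0.61, limma adjusted p = 0.0248), and in SCC25 0 of 17 passed. Of all start-site regions, 13.6% were higher in SCC1 and 10.9% lower in SCC6, so counts of 3 of 17 were near the background. With PBS, 6 were lower and 4 higher in SCC6 than in SCC1, and 8 lower and 1 higher in SCC25 than in SCC1, where 21.2% of all start-site regions were lower and 28.4% higher in SCC6, and 31.2% lower and 19.1% higher in SCC25. The receptor genes IFNAR1 (-1.85 in SCC6 and -2.14 in SCC25), IFNAR2 (-1.58 and -1.95) and IFNGR2 (-2.51 and -2.29) lie close together on chromosome 21. The other regions within 500 kb of them had medians between -1.84 and -1.48 in SCC6 and between -1.24 and -1.12 in SCC25. TYK2 was higher in SCC6 by 2.17, against the 2 SCC1 PBS libraries that lay far apart, with a median of 2.06 around it. What part of these differences belongs to the genes and not to their surroundings was not tested.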

How the data were processed

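ATAC-seq libraries of 3 lines were analysed from the deposited table of 115087 consensus regions and from the broad peak list of each library. The authors trimmed adapters (Trim Galore 0.5.0), aligned to hg19 (Bowtie2 2.3.2), dropped duplicate and mitochondrial reads (Picard 2.18) and poorly mapped ones (SAMtools 1.9), and called peaks in each library with MACS2, with versions as in the submitters' processing notes. The versions and thresholds of MACS2 and of DiffBind, the tool of the authors' region analysis, are not given in the sources used here. The deposited signal is a read count per region scaled by the authors to a common depth, with a least value of 1 read. The deposited peak lists hold a fold enrichment and −log10 p and q-values. Of these only the positions and fold enrichment of peaks were read, and presence of a peak means any overlap with a region. Division by the smallest value of a library gave whole reads for 100% of values (tolerance 0.001).

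Regions were assigned with GENCODE 44 lifted to GRCh37. Signals were tested as log2(signal + 1) with limma 3.58.1 (R 4.3.3) after dropping the 25% of regions with the lowest mean signal, within each line, over 17 libraries for the interaction, and over PBS libraries for the lines. p-values are two-sided and adjusted over all regions tested (Benjamini-Hochberg). A fold change on this scale understates the change of low regions. Scripts were tested on simulated data. Alternatives were median centring, quantile normalization, removal of a GC trend, a pseudocount of 5, no filter, edgeR 4.0.16 and DESeq2 1.42.0 on the recovered read counts, a replicate block, all libraries in 1 fit, and leaving out each library.

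Named in full were the start-site regions of 8 fixed genes, up to 8 non-overlapping calls of smallest adjusted p in each direction for cetuximab, up to 6 of largest difference in each direction between lines, and 6 for the interaction. A gene's main start site is its start-site region of highest mean signal over all libraries. Main and secondary thus rank signal only, and do not show which start a cell uses. The members and lists were chosen with earlier results of these data known, and the neighbourhoods of 500 kb after seeing these data. PECAM1 was not analysed here. Same-numbered libraries did not deviate together (r from -0.042 to 0.0265), so numbers were not taken as pairs. No 2 libraries of a group were duplicates (chi-square per degree of freedom 1.92 to 3.49). The values of 1 gene of the pathway list are not reported here.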

Additional observations from a re-analysis of the deposited data

Results flagged for a closer look

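The response to cetuximab differed between lines, by the limma interaction of line and treatment, at 14 regions of the list. Adjusted p values were 0.000225, 0.0102 and 0.0218 at the ISG15 regions near AGRN, next to HES4 and upstream, 0.000861 and 0.0296 at the start site and another region of STAT2, 0.00175 at the IRF9 start site, 0.00255 and 0.00314 downstream of GBP1, 0.00588 at the IFIT3 intron, 0.00827 upstream of IFI35, 0.0168 downstream of OAS2, 0.0195 downstream of ISG20, 0.0319 near SAMD9 and 0.0456 downstream of IFIH1. The background was 13.2% of all regions. Groups of 2 or 3 libraries are too small for the test of single outlying libraries.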

How the results depend on the processing

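Of the regions of the list, 13 were called in SCC1 with cetuximab, and 20 with libraries centred on their medians, 7 after removal of the GC trend, 8 with DESeq2 and 6 to 18 when a library was left out. In SCC25 the count of 0 became 1 with centring, quantile normalization, a pseudocount of 5, no filter or DESeq2, 3 with edgeR and 0 to 2 when a library was left out. The interaction gave 14, and 24 with edgeR, with 7 to 17 when a library was left out, the 7 without SCC1 PBS replicate 1. Leaving out a library gave 15 to 24 in SCC6 and 46 to 63, 43 to 59 and 55 to 60 between lines. With a replicate block the counts were 19 in SCC1, 23 in SCC6, 2 in SCC25, 16 for the interaction and 60, 54 and 59 between lines, although same-numbered libraries share only a number. Causes were not tested.

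Changes of sign were limited to log2 changes with cetuximab that did not pass in the fit reported. In SCC1, IFIT1 became 0.073 with centring, 0.037 with quantile normalization, 0.036 without the GC trend, 0.018 with edgeR, 0.046 with DESeq2, and -0.362 to 0.258 without 1 library. OAS1 became 0.155, 0.041, 0.114, 0.037 and 0.068 in that order, 0.022 with the replicate block, and -0.189 to 0.122 without 1 library. MX1 spanned -0.358 to 0.484 without 1 library. Removal of the GC trend gave -0.221 for MX1 and -0.109 for IRF1. In SCC6, STAT2 became -0.125 with centring, -0.006 with edgeR, -0.042 with DESeq2 and -0.028 to 0.126 without 1 library. IFIT1 became -0.102 with centring, -0.113 with quantile normalization, -0.036 with edgeR, -0.065 with DESeq2 and -0.096 to 0.218 without 1 library. MX1 became -0.077 with centring and -0.074 with quantile normalization. IRF9 became 0.027 with quantile normalization and -0.042 to 0.068 without 1 library, and OAS1 spanned -0.178 to 0.045. Removal of the GC trend gave 0.218 for IRF9, 0.015 for IRF1, 0.022 for ISG15 and 0.042 for OAS1. In SCC25, IFIT1 became 0.072 with centring, 0.066 with quantile normalization, 0.024 without the GC trend, 0.021 with edgeR, 0.054 with DESeq2 and -0.233 to 0.205 without 1 library. Removal of the GC trend gave -0.0 for IRF1, -0.034 for IRF7 and -0.04 for ISG15, and leaving out 1 library gave -0.066 to 0.339 for IRF7 and -0.052 to 0.304 for ISG15.

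Depth limits low regions: values of a few reads per library cannot separate weak opening from none.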
